A study of Mus musculus with 9 samples.

Results

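Ephrins and their receptors were examined in transcriptomes of mouse embryos taken at 34 h after fertilization, as 10 genes assembled around Efna1 out of the 19359 genes of the deposited table. The members were chosen by symbol and comprise the ligand genes Efna1, Efna2, Efna3, Efna4, Efna5, Efnb1 and Efnb2 and the receptor genes Epha2, Epha4 and Ephb4. The set was chosen with earlier results of these libraries known, among them an Efna1 level that lay higher in EPN than in SPN. All values of Efna1, and all values of the members in EPN against SPN, are therefore given as description without a test. Another 12 ephrin and Eph genes of the same table served as comparison.

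Each library was made from poly(A) RNA of 3 pooled embryos, and each group held 3 libraries named A, B and C. LPN embryos underwent pronuclear transfer at a later time, EPN embryos underwent it early, and SPN embryos underwent a sham procedure and served as control. The labels name B6D2F1 females aged 8 to 12 weeks, stimulated with PMSG and hCG, as the source of oocytes for the study. They do not give the genotype of the embryos by group, the sire or the hour of each transfer. The protocol shared by all 9 samples also describes selective enucleation of germinal vesicle oocytes, without saying which embryos it served. Nothing in the labels tells whether the pools of a group came from separate days or matings, and the p-values cover library-to-library spread alone, which may be technical.

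Ephrins are cell surface ligands for the Eph family of receptor tyrosine kinases, and both partners signal into their own cell when neighbouring cells touch. Ephrin-A proteins are held in the membrane by a GPI anchor, while ephrin-B proteins span it. The family is best known for axon guidance, tissue boundaries and the separation of arteries from veins. At the time sampled here mouse embryos normally hold few cells, and in bulk RNA fewer cells and less RNA per cell cannot be told apart.

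Library totals ran from 7611781 to 15559218 reads, so that 1 read equalled 0.0643 to 0.131 CPM, the deposited depth-normalised read count. The limit that 0 reads leaves, taken as 3 reads, was 0.193 to 0.394 CPM and covers counting error only. SPN A stood apart from its group: across genes it had a mean Spearman rho of 0.916 to EPN but 0.897 to SPN B and SPN C. Those 2 libraries had a mean rho of 0.892 and 0.888 to EPN, and of 0.908 and 0.907 to the rest of SPN. Genes are not independent replicates, and these values only describe resemblance. All 7 markers of 2-cell embryos and all 10 oocyte markers were detected. The summed 2-cell markers ran from 4270 to 6770 CPM in LPN, 3620 to 5280 CPM in EPN and 1370 to 3020 CPM in SPN. The oocyte markers summed to 1810 to 2660 CPM in LPN, 3190 to 3830 CPM in EPN and 4050 to 5240 CPM in SPN, without overlap between the groups. The 9 cumulus and granulosa markers in the table summed to 45.3 to 59.2 CPM in LPN, 39 to 83.5 CPM in EPN and 53.1 to 64 CPM in SPN. Of these 9, 5 reached 1 CPM in 3 or more libraries. Serpine2 (12.4 to 42.4 CPM), Amhr2 (8.69 to 33.9 CPM) and Tnfaip6 (2.13 to 23.7 CPM) were detected in every library. Foxl2 was at 0 in every library, and the others had no read in some libraries. The 4 sperm markers in the table summed to 3.55 to 6.62 CPM in LPN, 1.8 to 6.95 CPM in EPN and 6.02 to 12.3 CPM in SPN. The 2 genes of a blood list in the table, the haemoglobin genes Hba-a1 and Hba-a2, summed to 9.32 to 26.1 CPM in LPN, 33.9 to 79.8 CPM in EPN and 36 to 100 CPM in SPN. The part of these shifts in the results below was not tested.

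Efna1, Efna3 and Efna4 lie next to each other on mouse chromosome 3, and their promoter sequences are shown because these neighbours differed in transcript level. The windows come from RefSeq on GRCm38.p6, an older assembly than the GRCm39 of the submitters' notes, and run from 250 bases before to 50 bases after an annotated start. RefSeq lists a pair of starts for Efna1, at chr3:89280902-89281201 and chr3:89279596-89279895, and the first of 2 Efna3 windows and the Efna4 window lie at chr3:89322890-89323189 and chr3:89337979-89338278. All 4 windows are on the minus strand and are written 5′ to 3′ in gene direction. Capitals mark matches on either strand to the GC box, spelled GGGCGG. They likewise mark the CCAAT box. The TATA box was searched as TATAAA. The E-box was searched as CACGTG.
Efna1 window 1: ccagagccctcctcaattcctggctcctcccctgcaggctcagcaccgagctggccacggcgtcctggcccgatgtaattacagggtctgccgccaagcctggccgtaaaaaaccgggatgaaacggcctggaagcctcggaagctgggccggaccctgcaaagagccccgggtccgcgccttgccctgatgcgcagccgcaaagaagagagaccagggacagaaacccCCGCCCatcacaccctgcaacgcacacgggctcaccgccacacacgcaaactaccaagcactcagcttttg
Efna1 window 2: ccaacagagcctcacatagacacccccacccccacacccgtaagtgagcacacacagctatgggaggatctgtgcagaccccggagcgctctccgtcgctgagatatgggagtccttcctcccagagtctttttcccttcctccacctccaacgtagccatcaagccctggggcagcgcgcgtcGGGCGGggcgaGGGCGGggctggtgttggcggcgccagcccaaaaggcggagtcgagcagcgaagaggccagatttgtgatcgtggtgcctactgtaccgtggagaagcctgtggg
Efna3: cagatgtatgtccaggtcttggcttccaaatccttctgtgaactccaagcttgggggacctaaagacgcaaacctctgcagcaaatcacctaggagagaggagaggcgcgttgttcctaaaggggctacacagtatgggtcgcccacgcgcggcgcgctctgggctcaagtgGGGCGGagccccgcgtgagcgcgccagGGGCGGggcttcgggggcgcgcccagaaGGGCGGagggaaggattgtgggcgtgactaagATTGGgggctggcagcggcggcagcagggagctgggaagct
Efna4: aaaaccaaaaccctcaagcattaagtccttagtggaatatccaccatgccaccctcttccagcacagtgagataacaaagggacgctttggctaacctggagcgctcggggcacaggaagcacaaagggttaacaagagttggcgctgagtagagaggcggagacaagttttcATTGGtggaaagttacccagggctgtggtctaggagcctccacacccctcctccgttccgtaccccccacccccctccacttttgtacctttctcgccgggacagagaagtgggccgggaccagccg

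The first Efna1 window held 1 GC box match on the opposite strand, beginning 21 bases before the start. The second Efna1 window held 2 GC box matches on the gene's strand, beginning 66 and 55 bases before the start. The Efna3 window held 3 GC box matches and 1 CCAAT match on the opposite strand, and the Efna4 window held 1 CCAAT match on the opposite strand alone. Neither TATAAA nor CACGTG occurred in these windows, and no matches overlapped. Among 32851 mouse promoter windows of this length, 35.7% held GGGCGG, 37.4% CCAAT, 13.6% TATAAA and 7.15% CACGTG. Both Efna1 windows contained 20 CpG dinucleotides, the Efna3 window 22 and the Efna4 window 11. Over all windows the median was 7 and the upper quartile 20. The second Efna3 window, not shown, contained 34 CpG dinucleotides and 3 GC box matches. The deposited values are per gene, so they do not tell which Efna1 start was used, and a match is a description of letters, not of binding.

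Efna1, which encodes the GPI-anchored ligand ephrin-A1, was the ephrin with the highest level per length in each of the 3 groups. It had 76.9, 95.8 and 138 CPM in LPN libraries A, B and C, 206, 206 and 173 CPM in EPN libraries, and 79.2, 25 and 47.3 CPM in SPN libraries. Every EPN library lay above every LPN and SPN library. LPN and SPN overlapped, because SPN A lay just above LPN A. The means were 104 ± 31.2 CPM in LPN, 195 ± 19.2 CPM in EPN and 50.5 ± 27.3 CPM in SPN (SD, n = 3 each). On the log2(CPM + 1) scale the difference was 2.07 (SE 0.35) for EPN against SPN, or 4.2-fold, 1.13 (SE 0.35) for LPN against SPN, or 2.18-fold, and -0.94 (SE 0.35) for LPN against EPN, or 1.92-fold lower in LPN. Comparisons that name the same group share its libraries and are not independent of each other. Over all 16 alternative settings the EPN against SPN difference ran from 1.65 without SPN B to 2.46 without SPN A, and LPN against SPN from 0.71 to 1.52 without the same libraries.

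The remaining A-type ligands were scarce. Efna5, an ephrin-A known from axon guidance, had 4.11, 3.94 and 6.28 CPM in LPN libraries, 13, 9.61 and 7.49 CPM in EPN libraries, and 4.3, 16.6 and 13.8 CPM in SPN libraries. LPN lay below EPN without overlap, and SPN A fell inside the LPN range while SPN B and SPN C lay above all LPN libraries. The log2 difference was -0.97 (SE 0.58, limma adjusted p = 0.286) for LPN against SPN and -0.93 (SE 0.58, limma adjusted p = 0.39) for LPN against EPN, so neither passed. Without SPN A the LPN against SPN difference was -1.50 (limma adjusted p = 0.0656).

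Efna2 had 0.514, 0.131 and 3.35 CPM in LPN, 0.217, 0.703 and 3.22 CPM in EPN, and 0.143, 0.443 and 1.66 CPM in SPN. In each group library C was the highest, at 40 reads in LPN C, 43 in EPN C and 19 in SPN C. The differences of LPN were 0.25 (SE 0.65, limma adjusted p = 0.838) from SPN and -0.08 (SE 0.65, limma adjusted p = 0.962) from EPN. Efna4, the ligand ephrin-A4, had 18 reads in LPN C and none in LPN A and LPN B, 31 and 15 reads in EPN A and EPN B and none in EPN C, and 4, 0 and 18 reads in SPN libraries. Its level reached at most 2.24 CPM, and LPN differed by -0.13 (SE 0.62, limma adjusted p = 0.917) from SPN and -0.50 (SE 0.62, limma adjusted p = 0.696) from EPN. Efna3 was too low to be tested, with 0 to 0.754 CPM in LPN, 0 to 0.867 CPM in EPN and 0 to 2.39 CPM in SPN, the highest value being 27 reads in SPN B.

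Among the transmembrane ligands, Efnb2, an ephrin-B known as a marker of arteries, was the member with the next most reads. It had 18.5, 15.4 and 29.8 CPM in LPN libraries, 43.1, 33 and 35.7 CPM in EPN libraries, and 23.5, 63.4 and 73.4 CPM in SPN libraries. All LPN libraries lay below all EPN libraries, and SPN A fell inside the LPN range while SPN B and SPN C were the highest of the 9. Means were 21.2 ± 7.6 CPM in LPN, 37.3 ± 5.2 CPM in EPN and 53.4 ± 26.4 CPM in SPN (SD, n = 3 each). LPN differed from SPN by -1.19 on the log2 scale (SE 0.42), with a limma adjusted p of 0.0656 that did not pass, and from EPN by -0.83 (SE 0.42, limma adjusted p = 0.274). The LPN against SPN difference was called without SPN A (-1.69, limma adjusted p = 0.00424) and without LPN C (-1.45, limma adjusted p = 0.0491), and DESeq2 on recovered reads also called it (-1.12, adjusted p = 0.037). It was -0.89 (limma adjusted p = 0.311) without SPN C. Efnb1, an X-linked ephrin-B gene, had no read in the 3 LPN libraries, 42, 0 and 5 reads in EPN libraries, and 0, 0 and 14 reads in SPN libraries. Against a limit of 3 reads over the whole group, pooled Efnb1 was at least 13.8-fold lower in LPN than in EPN, where EPN A held most of the reads. It was at least 4.47-fold lower in LPN than in SPN, where all 14 reads were in SPN C. Both bounds cover counting error only, not the spread between libraries. LPN overlapped with both groups, because EPN B, SPN A and SPN B also had no read.

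**Figure D1:**
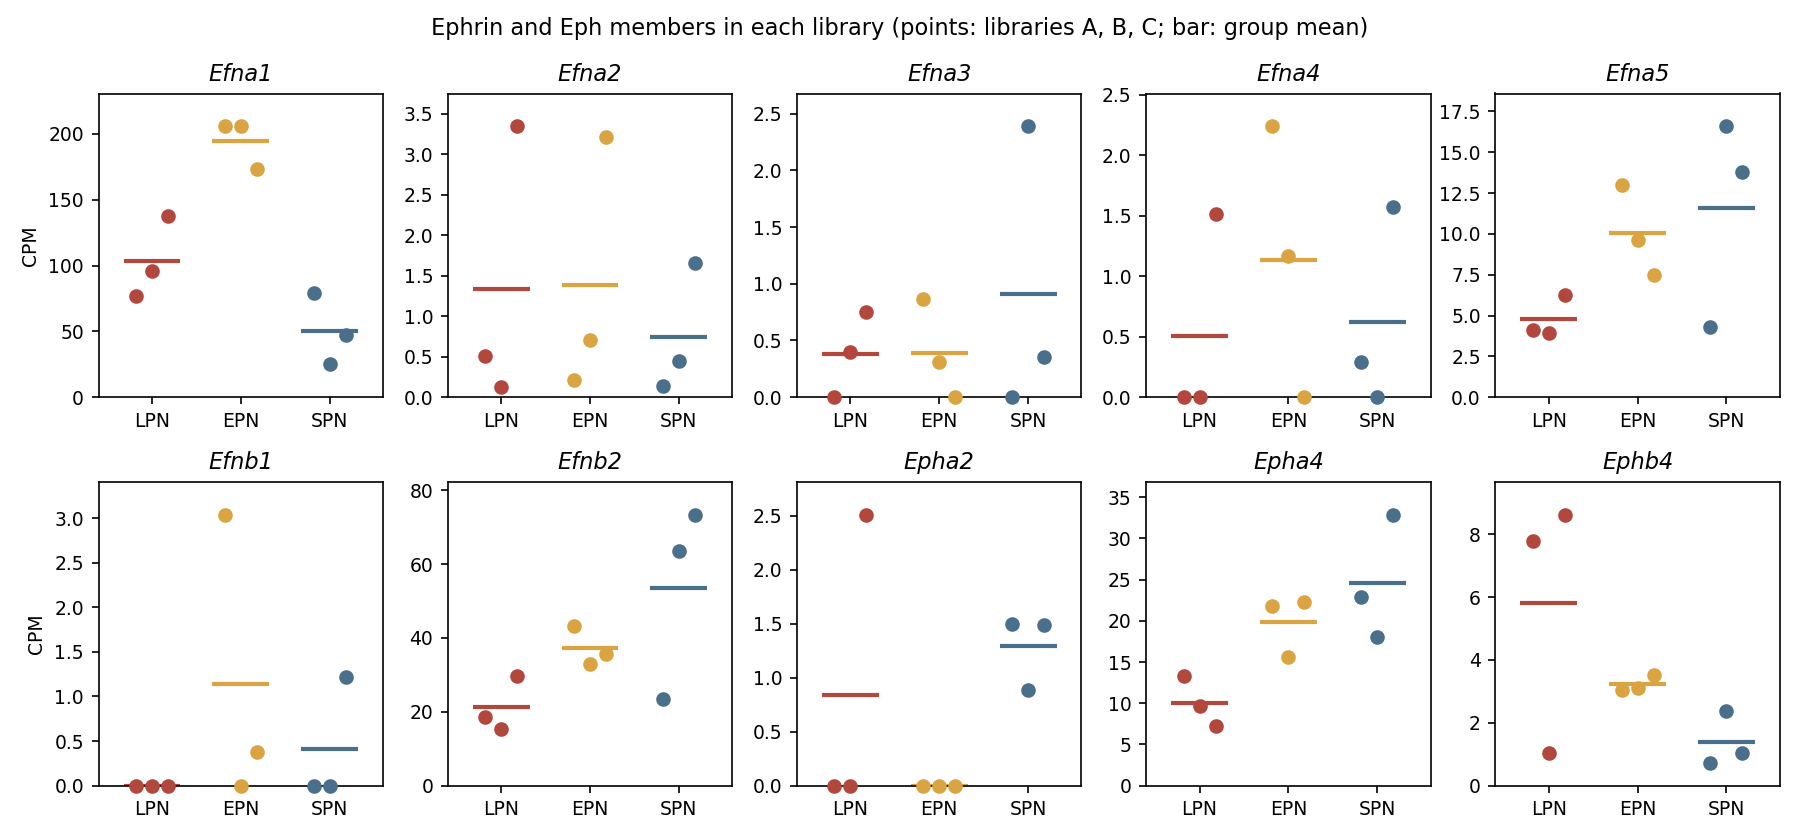
CPM of the 10 members in each library (y axis, separate scale for each gene) by group, with a point for each of libraries A, B and C and a bar at the group mean. The EPN points of Efna1, from 173 to 206 CPM, lie above all LPN and SPN points, and the LPN points of Epha4 lie below all EPN and SPN points.

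The receptor gene Epha4, whose protein binds ephrins of both classes, had 13.3, 9.72 and 7.2 CPM in LPN libraries, 21.8, 15.6 and 22.3 CPM in EPN libraries, and 22.9, 18 and 32.9 CPM in SPN libraries. LPN lay below both other groups without overlap, while EPN and SPN overlapped. The difference was -1.20 (SE 0.46, limma adjusted p = 0.0904) for LPN against SPN and -0.94 (SE 0.46, limma adjusted p = 0.26) for LPN against EPN. Neither passed, and over all 16 alternatives the adjusted p for LPN against SPN ran from 0.0628 to 0.316.

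Epha2, a receptor for ephrin-A1, was near the detection limit. It had 30 reads in LPN C and none in LPN A and LPN B, no read in any EPN library, and 21, 10 and 17 reads in SPN libraries. Pooled over libraries, EPN was at least 17.4-fold lower than SPN against a limit of 3 reads in the EPN group. That bound covers counting error only, not the spread between libraries. On the log2(CPM + 1) scale EPN differed from SPN by -1.18 (SE 0.60), or 2.27-fold lower, given as description. In CPM the SPN libraries stood at 1.5, 0.886 and 1.49. LPN against SPN differed by -0.58 (SE 0.60, limma adjusted p = 0.56) and LPN against EPN by 0.60 (SE 0.60, limma adjusted p = 0.606).

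Ephb4, the receptor that pairs with ephrin-B2 and marks veins, had 7.78, 1.05 and 8.63 CPM in LPN libraries, 3.04, 3.12 and 3.52 CPM in EPN libraries, and 0.716, 2.39 and 1.05 CPM in SPN libraries. Both LPN A and LPN C exceeded all EPN and SPN libraries, whereas LPN B, with 8 reads, lay inside the SPN range. EPN lay above SPN without overlap. LPN differed from SPN by 1.29 (SE 0.66, limma adjusted p = 0.208) and from EPN by 0.40 (SE 0.66, limma adjusted p = 0.773).

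Counting the 7 tested members other than Efna1, limma called 0 when LPN was set against SPN, where 8.8% of all 14876 tested genes were called, 3.26% higher and 5.54% lower. At an unadjusted p under 0.05 there were 2, Efnb2 and Epha4, both lower in LPN, where 26.9% of all tested genes passed that threshold. edgeR called 0 of the 7 and 3.21% of all tested genes, and DESeq2 called 1 of the 7 and 12.7% of all tested genes. DESeq2 gave no adjusted p for Efna2, Efna4 and Epha2, which count as not called. In LPN against EPN limma called 0 of 7, with 0 at an unadjusted p under 0.05 and 0 by edgeR and by DESeq2. In that comparison DESeq2 gave no adjusted p for Efna2, Efna4, Epha2 and Ephb4. Of all tested genes limma called 1.53%, 0.692% higher and 0.84% lower, while 19.3% had an unadjusted p under 0.05, edgeR called 0.114% and DESeq2 called 6.29%. Groups did not overlap for 1 of these 7 in LPN against SPN, as for 27.5% of all tested genes (11.3% higher, 16.2% lower), and for 3 of 7 in LPN against EPN, as for 26.6% (11.3% higher, 15.3% lower). In EPN against SPN, the comparison that led to the choice of Efna1, 0.108% of all tested genes were called, 0.0739% higher and 0.0336% lower. Efna1 and Ephb4 lay higher in EPN than in SPN without overlap, as did 7.07% of all tested genes, and Epha2 lay lower without overlap, as did 7.56%, out of 14.6% in all. The median log2 difference of the 7 was -0.58 for LPN against SPN, beside -0.17 over all tested genes, and -0.50 for LPN against EPN, beside -0.14. Median-of-ratios scaling brought the medians of all genes to -0.03 and -0.04. With that scaling Efna1 remained higher in LPN than in SPN (1.3) and lower than in EPN (-0.82), and Efnb2 differed by -1.02 and Epha4 by -1.03 in LPN against SPN.

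Levels of different genes were compared per length, as CPM divided by the exon length in kb taken from GENCODE M21 on GRCm38, since the authors' annotation is not given in the sources used here. Efna1 reached 56.6 CPM per kb in LPN, 107 in EPN and 27.6 in SPN, while Efnb2 had 3.1 CPM per kb in LPN, 5.44 in EPN and 7.8 in SPN. Efna1 made up 91.3%, 93.2% and 88.9% of the summed ephrin CPM per kb in LPN A, B and C and 89.8%, 92.6% and 91% in EPN A, B and C. In the control group it was 89.1% in SPN A, 45.9% in SPN B and 60.1% in SPN C. By this share SPN A lay inside the range of the transfer libraries, and SPN B and SPN C lay below all others. The ligands other than Efna1 summed to 4.02, 3.81 and 9.42 CPM per kb in LPN libraries, 12.8, 8.96 and 9.34 in EPN libraries, and 5.28, 16.1 and 17.1 in SPN libraries. Summed over 14 Eph genes, receptor levels were 6.71 to 11.4 CPM per kb in LPN, 9.22 to 11.1 in EPN and 9.6 to 13.5 in SPN. The ratio of summed ligand to summed receptor level was 4.03 to 8.36 in LPN, 11.1 to 13.2 in EPN and 3.1 to 4.34 in SPN. EPN did not overlap with the others in this ratio, which follows Efna1, and LPN and SPN overlapped.

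**Figure D2:**
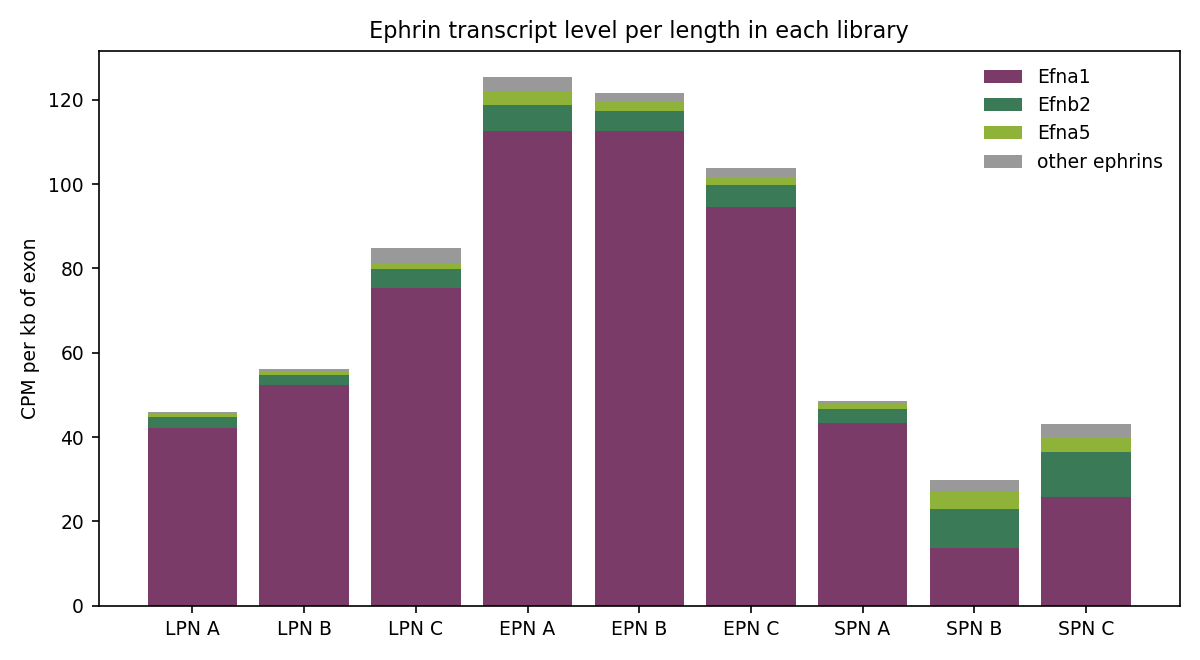
Stacked level of the ephrin genes in CPM per kb of exon (y axis) in each of the 9 libraries (x axis), with Efna1, Efnb2, Efna5 and the sum of the other 5 ephrins in separate colours. Efna1 fills 88.9% to 93.2% of each LPN and EPN bar and of SPN A, but 45.9% of SPN B and 60.1% of SPN C.

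Of the 12 other family genes in the table, 10 were tested, and limma called 0 of them both for LPN against SPN and for LPN against EPN. These comparisons called 8.8% and 1.53% of all tested genes. At an unadjusted p under 0.05 there was 1 of the 10 for LPN against SPN, beside 26.9% of all tested genes, and 3 of the 10 for LPN against EPN, beside 19.3%. edgeR called 0 of the 10 in either comparison, and DESeq2 called 0 for LPN against SPN and 1 for LPN against EPN, beside 12.7% and 6.29% of all tested genes. For EPN against SPN limma, edgeR and DESeq2 each called 0 of the 10, where limma called 0.108% of all tested genes. The gene called by DESeq2 was Ephb1, an EphB receptor gene, with 22.4, 16.7 and 22.2 CPM in LPN, 3.76, 7.42 and 8.99 CPM in EPN, and 15.3, 6.73 and 11.9 CPM in SPN. LPN lay above EPN and SPN without overlap, and the difference from EPN was 1.53 (SE 0.52, limma adjusted p = 0.11; DESeq2 1.70, adjusted p = 0.0301). Per length, Ephb1 was the highest receptor in LPN, at 2.92 CPM per kb, against 0.96 in EPN and 1.62 in SPN. Epha4 was the highest in EPN and in SPN, at 1.25 CPM per kb in LPN, 2.47 in EPN and 3.05 in SPN. Epha3 had 1.73 CPM per kb in LPN, 1.58 in EPN and 2.13 in SPN.

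Epha7 had 4.31, 0.131 and 0.67 CPM in LPN, 11.5, 0 and 3 CPM in EPN, and 5.3, 7.71 and 12.2 CPM in SPN. Its LPN libraries all lay below its SPN libraries, as for 16.2% of all tested genes, with a difference of -2.06 (SE 0.76, limma adjusted p = 0.078). Epha10, which encodes a receptor thought to lack kinase activity, had 3.47, 1.18 and 11.4 CPM in LPN and 11.4, 11.1 and 15.5 CPM in EPN (difference -1.45, SE 0.64, limma adjusted p = 0.208). Ephb3 had 2.64, 0 and 1.17 CPM in LPN and 4.48, 6.56 and 4.12 CPM in EPN (difference -1.58, SE 0.71, limma adjusted p = 0.215). These 3 receptor genes did not pass. Epha3 differed by -0.33 in LPN against SPN and by 0.19 in LPN against EPN (limma adjusted p = 0.707 and 0.869). Efnb3, the remaining ligand gene, ranged from 0.193 to 4.96 CPM. Epha1, Epha5, Epha6 and Ephb6 stayed at or below 5.66 CPM, and Epha8 and Ephb2, not tested, reached 0.45 and 1.24 CPM.

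**Figure D3:**
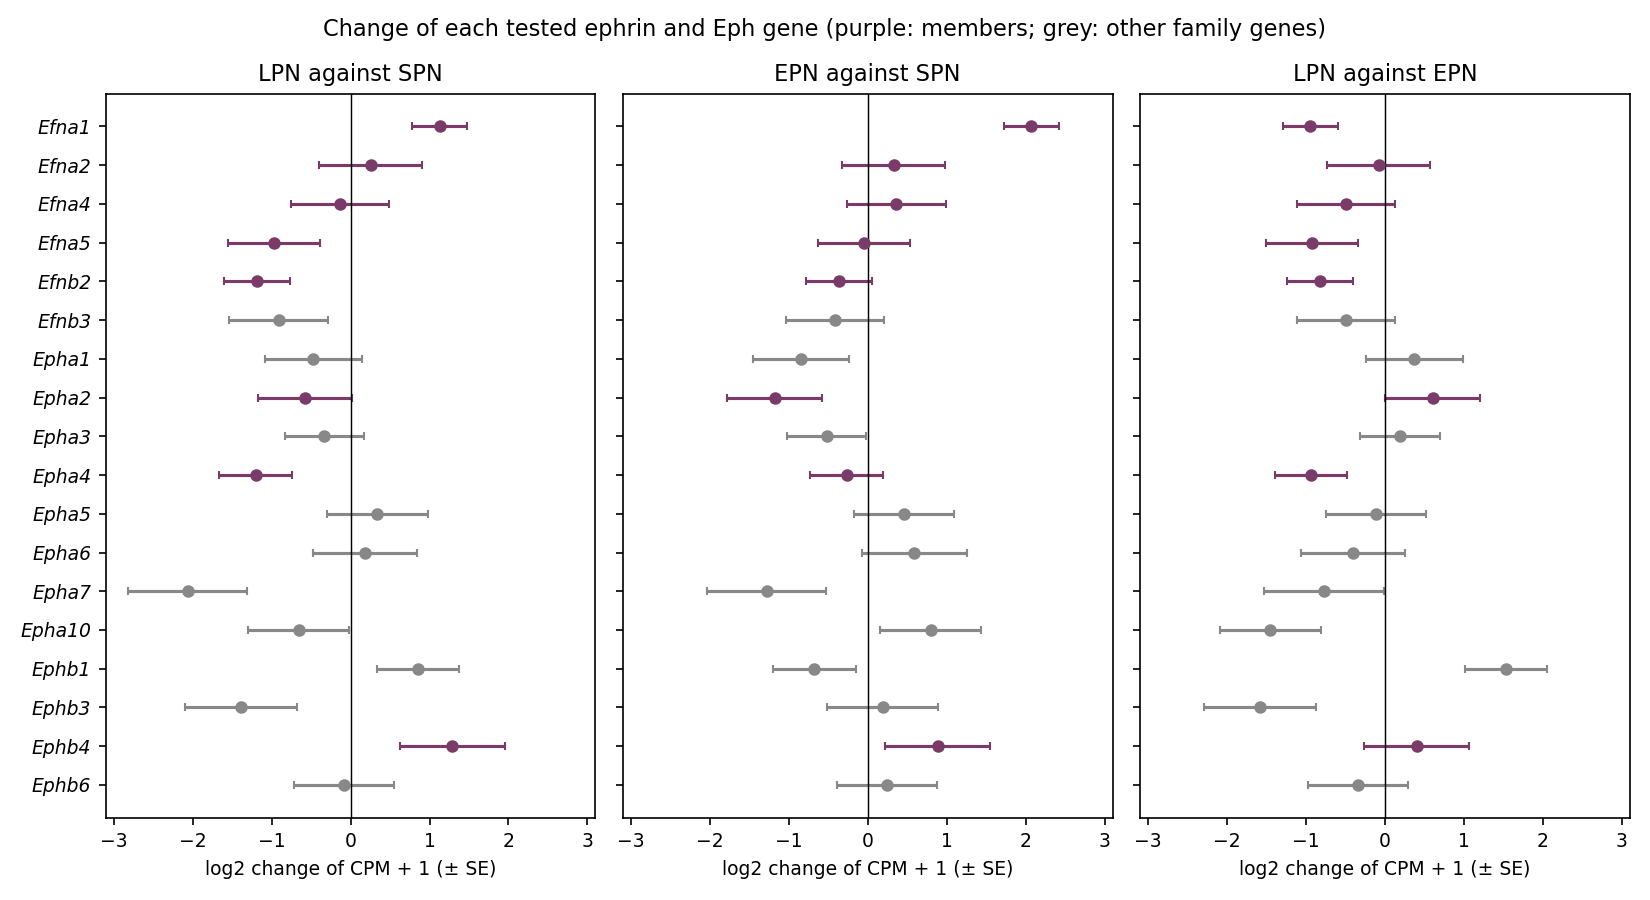
Difference in log2(CPM + 1) with its limma standard error (x axis) for the 18 tested ephrin and Eph genes (y axis) in LPN against SPN, EPN against SPN and LPN against EPN. Members are purple and other family genes grey; Efna1 stands at 1.13, 2.07 and -0.94, shown as description only.

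Proteins that act with or below Eph receptors were counted in lists chosen by role. The lists held 83 tested genes, the 10 family genes included. Of the 83, limma called 9 as lower in LPN than in SPN, or 10.8%, and 0 as higher. Of all tested genes 5.54% were called lower and 3.26% higher. With both directions together the shares were 10.8% beside 8.8%, and the shares by other tools and settings below also count both directions. The median difference of the 83 in LPN against SPN was -0.63 beside -0.17 over all genes. Of 24 kinases and adaptors 2 fell in LPN against SPN, of 7 phosphatases 1 fell, and of 13 proteases 1 fell. The other 5 called genes are Tiam1, Wasl, Chn1, Pak1 and Rap1a, described next. edgeR called 3 of the 83, or 3.61%, beside 3.21% of all tested genes, and DESeq2 called 11, or 13.3%, beside 12.7%, so both shares were near the background. Leaving out SPN A gave 17 calls, or 20.5%, beside 18.4% of all tested genes. There were 0 when SPN C was left out, 2 when SPN B was and 1 when LPN B was, beside 0.645%, 3.01% and 1.37% of all tested genes. For EPN against SPN limma, edgeR and DESeq2 each called 0 of the 83. There limma called 16, edgeR 0 and DESeq2 116 of all 14876 tested genes. The median difference of the 83 was -0.22, beside -0.07 over all genes.

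Tiam1, an exchange factor that activates Rac, had 21.7, 16.2 and 24.8 CPM in LPN libraries and 46.5, 76.8 and 97.7 CPM in SPN libraries, without overlap. It fell 3.31-fold on the log2 scale (difference -1.73, SE 0.37, limma adjusted p = 0.00574). Wasl, which encodes the actin nucleation promoter N-WASP, had 112, 101 and 137 CPM in LPN and 175, 305 and 345 CPM in SPN and fell 2.27-fold (limma adjusted p = 0.0133). Chn1, a Rac inactivator that acts below EphA4 in mouse neurons, had 63.3, 34.7 and 52.6 CPM in LPN and 137, 108 and 101 CPM in SPN and fell 2.32-fold (limma adjusted p = 0.0193). The kinase gene Pak1, an effector of Rac and Cdc42, had 44.7, 30.7 and 30.7 CPM in LPN and 54.5, 101 and 104 CPM in SPN and fell 2.35-fold (limma adjusted p = 0.0299). A further called gene, named after its values were seen, was the small GTPase gene Rap1a, at 18.3 CPM in LPN and 45.6 CPM in SPN (limma adjusted p = 0.0357). In each of these 5 genes every LPN library lay below every SPN library, as for 16.2% of all tested genes. The 5 were named for their call in this comparison, so this separation is no separate support. In EPN libraries Tiam1 had 72.4, 43.8 and 48.3 CPM, Wasl 225, 192 and 212 CPM, and Chn1 116, 85.2 and 93.9 CPM. Pak1 had 62.1, 40.1 and 52.2 CPM in EPN, and Rap1a averaged 35.8 CPM. None of the 5 was called in EPN against SPN (limma adjusted p 0.464 to 0.833) or LPN against EPN (0.0543 to 0.423).

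Ptpro, a receptor-type tyrosine phosphatase, had 15.3, 19.2 and 4.19 CPM in LPN and 44, 38.1 and 44.4 CPM in SPN and fell 3.6-fold (limma adjusted p = 0.0185). Psenen, a subunit of the gamma-secretase that cuts membrane proteins after shedding, had 52, 28.1 and 42.9 CPM in LPN and 79, 90.8 and 200 CPM in SPN and fell 2.79-fold (limma adjusted p = 0.0113). Abl2, a cytoplasmic tyrosine kinase that regulates actin, had 72.1, 53.6 and 104 CPM in LPN and 87.9, 242 and 241 CPM in SPN (fell 2.32-fold, limma adjusted p = 0.0282). SPN A, at 87.9 CPM of Abl2, lay inside the LPN range. Ptpro in EPN had 15.3, 20.4 and 10.5 CPM, overlapping with LPN (LPN against EPN -0.41, limma adjusted p = 0.675). Every EPN library of Ptpro lay below every SPN library (EPN against SPN -1.44, limma adjusted p = 0.255). Psenen in EPN had 63.7, 62.9 and 57.3 CPM, above all LPN and below all SPN libraries (limma adjusted p = 0.352 and 0.354). Of all tested genes 7.56% lay lower in EPN than in SPN without overlap, and 15.3% lower in LPN than in EPN. Abl2 in EPN had 157, 145 and 141 CPM (LPN against EPN limma adjusted p = 0.114, EPN against SPN 0.854).

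In LPN against EPN 1 of the 83 genes was called, or 1.2%, beside 1.53% of all tested genes, and it was lower in LPN. This was Pik3r1, a regulatory subunit of phosphoinositide 3-kinase, with 28, 36.8 and 39.1 CPM in LPN, 116, 88.2 and 89.4 CPM in EPN, and 76.6, 63.5 and 93.9 CPM in SPN. LPN lay below both other groups without overlap, as for 15.3% of all tested genes against EPN and 16.2% against SPN. Pik3r1 was named for its calls in these comparisons, so this separation is no separate support. Pik3r1 fell 2.78-fold against EPN (difference -1.47, SE 0.33, limma adjusted p = 0.0243) and 2.21-fold against SPN (-1.14, SE 0.33, limma adjusted p = 0.0291). The call against EPN was lost without LPN A, LPN B, EPN A or EPN C, and 8 of the 83 genes, or 9.64%, were called without SPN A, beside 5.12% of all tested genes.

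The genes beside Efna1 on chromosome 3 were compared because Efna3 and Efna4 are among them. In the RefSeq gene order of GRCm38, the nearest 7 genes of the table on one side and 8 on the other held 10 tested genes that are not members. In EPN against SPN their log2 differences ran from -1.22 to 0.41, while that of Efna1 was 2.07. In LPN against SPN they ran from -1.58 to 1.44, beside 1.13 for Efna1, and in LPN against EPN from -1.87 to 1.10, beside -0.94 for Efna1. Because Efna1 was chosen with its EPN against SPN difference known, its place outside the neighbours' range there is no separate support. Several of the 10 averaged under 5 CPM, and this scale understates changes of low genes. The nearest genes, Slc50a1 on one side and Efna3 on the other, reached at most 3.1 CPM and 2.39 CPM in any library. The cell cycle gene Cks1b, at the end of the stretch, had 847 to 1410 CPM in LPN, 800 to 1530 CPM in EPN and 845 to 1560 CPM in SPN.

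**Figure D4:**
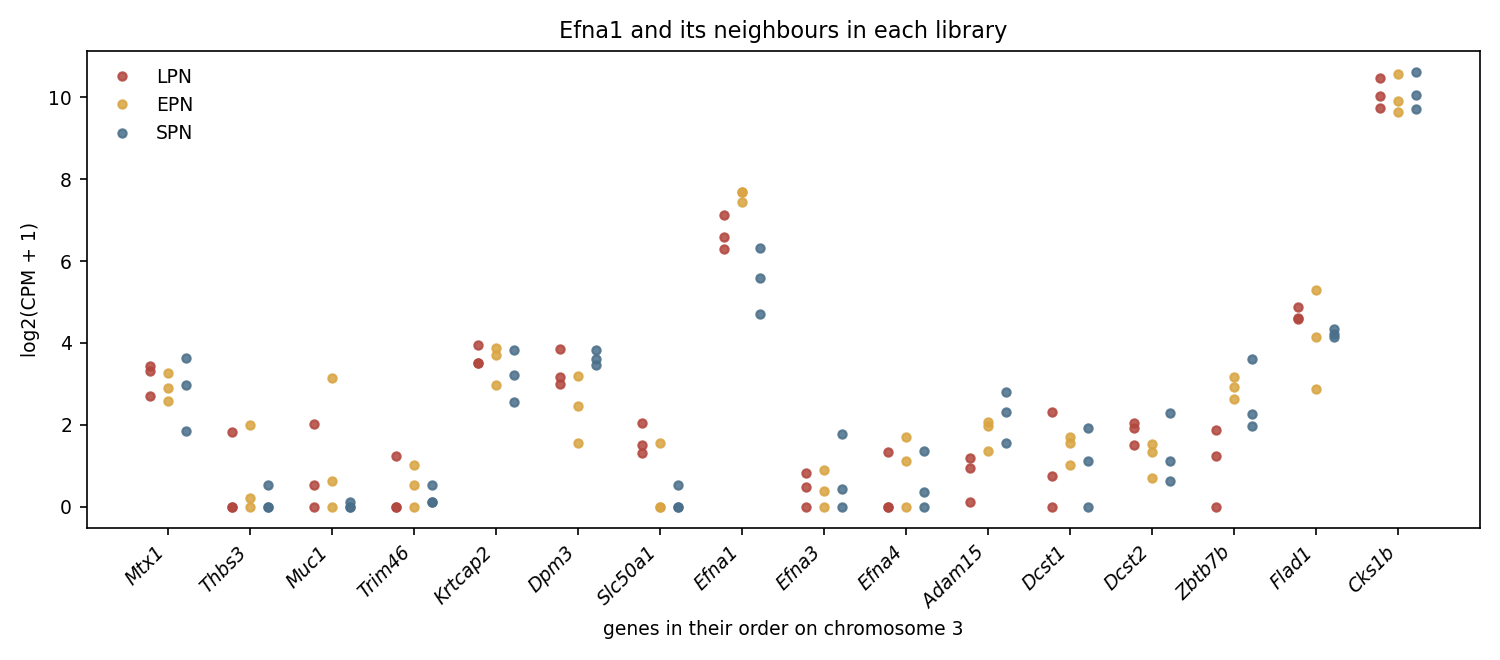
log2(CPM + 1) of Efna1 and its nearest genes of the table, 7 on one side and 8 on the other, in their order on chromosome 3 (x axis), with a point for each library coloured by group. Efna1 lies above every shown gene but Cks1b in every library, with its EPN points highest, whereas Efna3 and Efna4 lie near 0.

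To describe the Efna1 pattern further, 9084 genes averaging at least 5 CPM were ranked by the Pearson correlation of log2(CPM + 1) with Efna1 over the 9 libraries. These libraries share the group differences, and the correlations are descriptions without a p-value. The highest values belonged to the zinc finger gene Zfp869 (r = 0.97), Aunip (0.959), which encodes a partner of Aurora A kinase, Dkkl1 (0.95), Bex1 (0.948), Fthl17b (0.944), the histone demethylase family gene Jmjd1c (0.941), Tdpoz8 (0.939) and the glutamine synthetase gene Glul (0.938). Reads of Fthl17b and Tdpoz8 can be shared with near-identical copies, so their values are uncertain. Zfp869 had 34.7, 34.8 and 51.9 CPM in LPN, 53.1, 64.4 and 58.4 CPM in EPN, and 31.7, 21.1 and 25.9 CPM in SPN. Glul averaged 1170 CPM in LPN, 1650 CPM in EPN and 872 CPM in SPN. In both genes every EPN library lay above every LPN and SPN library. Both were picked for their likeness to Efna1, which has this order, so the separation is no separate support.

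The lowest correlations were those of the zinc exporter gene Slc30a1 (r = -0.94), Eif3j2 (-0.93), the signal peptidase gene Sec11a (-0.924) and Nanos3 (-0.917). Sec11a averaged 219 CPM in LPN, 168 CPM in EPN and 289 CPM in SPN. Within the family the correlation with Efna1 was 0.527 for Epha10, 0.394 for Efna4, 0.317 for Ephb4, -0.35 for Efnb2, -0.213 for Epha4 and -0.449 for Epha7, so none was near the values above.

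**Figure D5:**
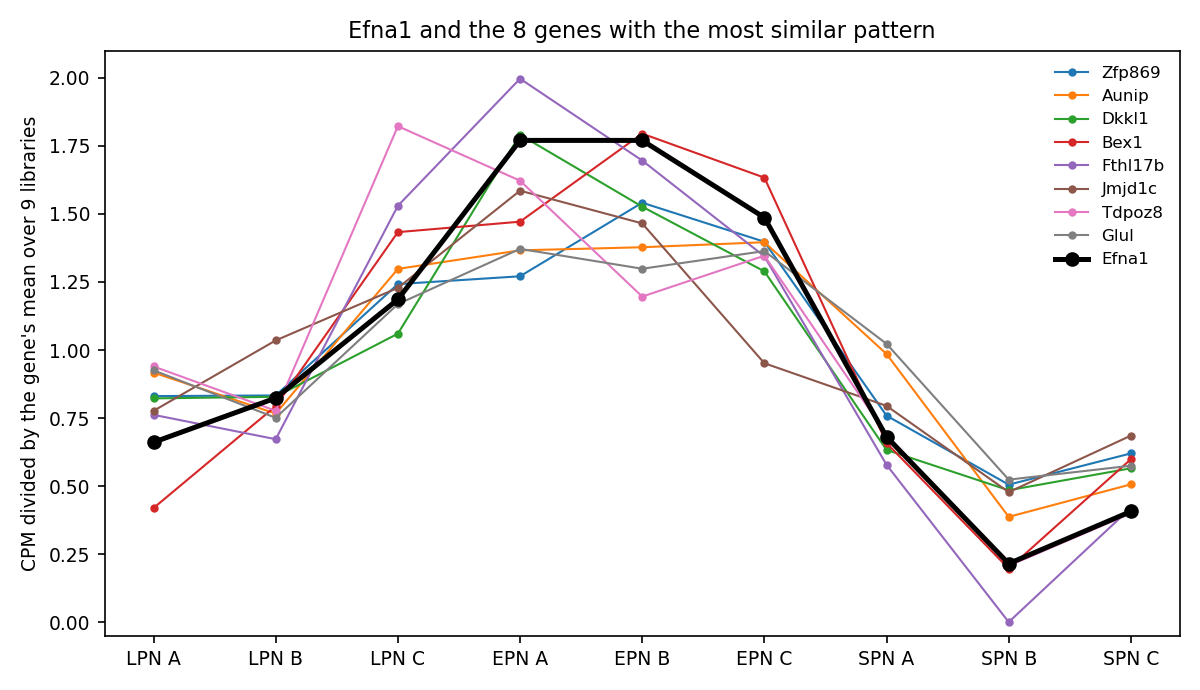
CPM divided by the gene's mean over the 9 libraries (y axis) in each library (x axis) for Efna1 (thick black) and the 8 genes with the highest correlation to it; lines join the points of a gene and libraries of a group have no order. All 9 genes are lowest in SPN B, and all are highest in an EPN library except Tdpoz8, which is highest in LPN C.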

How the data were processed

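Poly(A) RNA of 9 pools of 3 mouse embryos was measured; per the labels' protocols, cDNA came from a Smart-seq2 v4 kit and libraries from Nextera XT, read as paired ends on an Illumina NovaSeq. The tools named, per the submitters' processing notes, are HISAT2 2.2.1, Trim Galore 0.6.7, edgeR and R 3.3.3, with the build GRCm39; the program that counted reads and its annotation are not given in the sources used here. For 19359 genes CPM were deposited by the authors; 100% of values were whole multiples of 1 step within 0.01 reads, which gave back whole reads, and 3.66% to 5.68% of each library total lay outside the table.

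The 14876 genes reaching 1 CPM in 3 or more of 9 libraries were fitted in 1 limma 3.58.1 model (R 4.3.3, trend, 6 residual and 25.9 prior degrees of freedom) on log2(CPM + 1), with Benjamini-Hochberg adjustment over all tested genes and a threshold of 0.05. Fold changes are on that scale, which understates changes of low genes, and intervals and SEs are limma's. Of the 10 members 8 were tested. edgeR 4.0.16 (quasi-likelihood, TMM) and DESeq2 1.42.0 on recovered reads, another pseudocount, other filters, median-of-ratios scaling, a block by letter and leaving out each library were alternatives. The pipeline was tested on simulated data in which only genes averaging 5 CPM or more were changed, so that test does not cover the low members. Members, lists and tests were chosen with earlier results of these data known. Named were all members and family genes, up to 4 called pathway genes per list and direction averaging 5 CPM or more, and the 8 most and 4 least similar genes; exceptions are stated. The count of 1 pathway list and the values of 1 neighbouring gene are not reported here. Promoters were matched by symbol for 21 of the 22 family genes in the table.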

Additional observations from a re-analysis of the deposited data

How the results depend on the processing

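Efna1 kept its direction in all 3 comparisons under all 16 alternatives and moved by less than its spread between replicates. All settings reuse the libraries whose Efna1 values led to the choice, so this is description and no separate support. Of the members other than Efna1, 0 were called in LPN against SPN, 1 with a mean filter of 5 CPM (Efnb2, limma adjusted p = 0.0474), 1 with DESeq2, and 0 to 1 when a library was left out; in LPN against EPN it was 0 throughout. Pathway genes called in LPN against SPN numbered 9, but 5 without a filter, 3 with edgeR and 0 to 17 with a library left out; in LPN against EPN 1, but 0 without a filter and with edgeR, 3 with the mean filter and with the replicate block, 2 with median-of-ratios scaling, 5 with DESeq2 and 0 to 8 with a library left out. Among all tested genes, calls in EPN against SPN numbered 16, but 4 with a pseudocount of 0.1 CPM, 0 without a filter and with edgeR, 3 with median-of-ratios scaling, 116 with DESeq2, 25 with the replicate block and 0 to 451 with a library left out. In LPN against SPN they numbered 1309, but 494 without a filter, 477 with edgeR and 96 to 2733 with a library left out. In LPN against EPN they numbered 228, but 62 with a pseudocount of 0.1 CPM, 0 without a filter, 395 with the mean filter, 17 with edgeR, 935 with DESeq2, 480 with the replicate block and 4 to 762 with a library left out. The cause was not tested.

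Among the tested differences, direction turned only when a library was left out and only for differences that did not pass. Efna2 in LPN against SPN was -0.32 without LPN C, -0.0049 without SPN A and at most 0.65 with another library left out, and in LPN against EPN 0.11 without LPN A, 0.32 without LPN B, 0.44 without EPN C and at least -0.655 with another library left out. Efna4 in LPN against SPN was 0.087 without LPN A or LPN B, 0.26 without SPN C and at least -0.58 with another library left out. Epha7 in LPN against EPN was 0.11 without EPN A and at least -1.71 with another library left out, and Epha3 was -0.021 without LPN B, -0.23 without EPN C and at most 0.57 with another library left out. The untested EPN against SPN values of 3 members also changed sign: Efna2 (-0.19 without EPN C), Efna4 (-0.017 without EPN A) and Efna5 (0.0095 with median-of-ratios scaling, and 0.13 without EPN C, 0.29 without SPN B and 0.16 without SPN C). These settings were applied to Ephb1, Epha3, Epha7, Epha10, Ephb3 and the called pathway genes after seeing the data. Each called pathway gene kept its direction in every setting but lost its call in 2 to 8 of 16. Efna3, Efnb1 and, with the mean filter, other low members gave no value.

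Letters A, B and C were shared between groups, and the labels do not say whether they mark pairs. Same-letter deviations correlated by -0.024 to 0.092, against -0.10 to 0.096 for other letters. These values cannot settle whether the letters are pairs, because deviations within a group of 3 must balance. The letters were not taken as pairs, and the replicate block is given as counts alone. With the block, calls among all tested genes numbered 1644 rather than 1309 in LPN against SPN and 480 rather than 228 in LPN against EPN. Depth limits the members below about 1 CPM, where 3 reads amount to 0.193 to 0.394 CPM.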
